A study of Mus musculus with 23 samples.

Results

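The segment of mouse chromosome 10 described here starts at 118.4 Mb in the GRCm38 build and runs for 12.2 Mb to the distal end of the annotated genes. Its 112 members are the annotated genes that start in this segment and had a mean of more than 10 estimated reads per library over all 23 libraries, out of 35576 genes with summed reads. The segment held 244 annotated genes, of which 126 did not pass this minimum and 6 (Stat2, Stat6, Cdk4, Erbb3, Tbk1 and Ifng) were left out by name. Just under the minimum lay Wif1 (mean 6.61 reads), Rdh9 (7.33) and Olfr825 (9.77), and just over it Gm10120 (10.23), Rdh1 (10.47) and Gm10310 (10.85). Of the members, 110 are protein coding.

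The segment is gene-dense at its distal end and mixes unrelated housekeeping and tissue-restricted genes. They include enzymes of mitochondrial metabolism, ribosomal proteins, a replicative primase, a matrix receptor and a lipoprotein receptor, as well as a cluster of olfactory receptors. When a chromosome segment differs in copy number between tumor lines, the RNA of its genes often differs in the same direction, although feedback, promoter activity and cell type set the level of each gene as well. RNA alone does not measure copies. The segment was chosen under a name that speaks of a loss in CT2A, which is not measured here. The members were chosen for reads over all libraries, CT2A included, and 108 of 112 had over 3 reads in every bulk CT2A library, 95 in every sorted one and 94 in every neurosphere one. The reads were not scaled to depth for this choice, and the bulk GL261 libraries were the deepest. Weak genes could therefore pass through that group: Vmn2r86 and Gm10310 had 683 and 209 reads in bulk GL261 and at most 29 in any other group. Such members are part of the bulk counts below.

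GL261 and CT2A are murine glioma lines that arose after methylcholanthrene exposure and were implanted into the brains of female albino C57BL/6 mice. In Cohort A, whole tumors of GL261-luc2 (n = 4) and CT2A-luc (n = 4), both luciferase-transduced, were sequenced. In Cohort B, tumor cells of further luciferase sublines of both lines were bead-selected from dissociated tumors of GL261 (n = 4) and CT2A (n = 3). Another set held sorted tumor cells from tumors cultured as neurospheres, of GL261 (n = 3) and CT2A (n = 5). No group received a drug according to the labels, and each line is represented by 1 subline per design. No normal brain library was analysed here, so a ratio between the lines does not by itself tell which of them departs from normal tissue. From exomes of cultured cells set against normal tail samples, the study reports a gain of the whole chromosome that holds the segment in GL261-luc2. It also reports a loss of a part of that chromosome in CT2A-luc. The part of either change in the RNA values below was not tested.

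The estimated reads per library ranged from 34622622 to 42608400 in bulk GL261 and from 9590096 to 9853530 in bulk CT2A, so depth and line cannot be told apart in that design. In the 4 sorted groups the depth ranged from 7395846 to 15263587 reads. The study describes another library kit, sequencer and read length for sorted than for bulk samples. Differences between bulk and sorted designs are therefore confounded with these as well as with subline. The titles of the 5 neurosphere CT2A libraries name GL261, although the cell line field and the description of each give CT2A, which was followed here. Over 14336 genes other than the members, their Spearman correlation with the sorted CT2A mean was 0.952 to 0.989 and with the sorted GL261 mean 0.812 to 0.821. Among the sorted GL261 libraries, library 81 stood apart, as did CT2A library 59 in the neurosphere set, and the calls in which either decided a value are given with and without it. In bulk tissue, fewer cells of a type and less RNA per cell cannot be told apart. The summed level of 6 macrophage and microglia markers was 324 to 464 CPM (counts scaled to library size) in bulk GL261 and 309 to 467 in bulk CT2A, but 1592 to 2215 in neurosphere GL261 against 183 to 663 in neurosphere CT2A, where all 6 were lower in CT2A (edgeR, adjusted p under the threshold of 0.05). Markers of endothelial cells (5 of 5), oligodendrocytes (4 of 5) and astrocytes (4 of 4) were also lower in neurosphere CT2A, and 3 of 5 endothelial and 3 of 5 oligodendrocyte markers in sorted CT2A, where the latter summed to 170 to 249 CPM against 456 to 860 in GL261. In bulk no marker of these lists was called. The part of these differences in the results below was not tested.

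The promoters of 4 members are shown so that exceptions can be set beside the majority: Gdf11 and Avil, which were higher in CT2A in sorted and neurosphere cells, and Helb and Cs, which were lower in all 3 designs. RefSeq promoters were found for 85 of the 112 members, in GRCm38.p6. Each line gives the 200 bases before the start, 5′ to 3′ on the gene's strand, with every GC box (GGGCGG on either strand, the core bound by Sp1) in capitals.
Gdf11 (chr10:128891719-128891918, minus strand): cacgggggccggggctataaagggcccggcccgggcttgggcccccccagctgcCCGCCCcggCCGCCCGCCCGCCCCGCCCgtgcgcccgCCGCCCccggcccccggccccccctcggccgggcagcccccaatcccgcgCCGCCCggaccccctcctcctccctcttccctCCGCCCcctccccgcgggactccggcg
Avil (chr10:127000509-127000708, plus strand): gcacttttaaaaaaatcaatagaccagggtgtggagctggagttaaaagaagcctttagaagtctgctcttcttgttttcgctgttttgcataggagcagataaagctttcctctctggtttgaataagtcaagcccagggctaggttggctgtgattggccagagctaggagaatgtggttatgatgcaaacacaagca
Helb (chr10:120112966-120113165, minus strand): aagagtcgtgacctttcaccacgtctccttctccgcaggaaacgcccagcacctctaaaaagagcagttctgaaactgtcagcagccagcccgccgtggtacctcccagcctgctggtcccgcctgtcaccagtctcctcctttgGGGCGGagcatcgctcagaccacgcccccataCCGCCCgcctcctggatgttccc
Cs (chr10:128337527-128337726, plus strand): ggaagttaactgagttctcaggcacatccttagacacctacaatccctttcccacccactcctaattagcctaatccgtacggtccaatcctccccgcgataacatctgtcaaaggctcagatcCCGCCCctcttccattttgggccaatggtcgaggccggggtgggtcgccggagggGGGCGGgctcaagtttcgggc
In these 200 bases Gdf11 held 8 matches, Helb 2, Cs 2 and Avil 0: both lower genes held the same number, and the 2 higher genes lay on either side of it. Within the full RefSeq window (250 bases before to 50 after the start), 46 of 85 members held the motif (54.1%), against 35.7% of all 32851 promoters. These sets are unlike. Each member had passed a read minimum and entered only with the promoter nearest its annotated start, whereas the 32851 are all entries without either choice. The shares therefore do not show an enrichment in the segment. Overlapping matches were counted, and a match is a description of the letters only.

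Most members were lower in CT2A than in GL261 in sorted and neurosphere cells, and most had a negative log2 fold change in each design (97 of 111, 83 of 96 and 84 of 95). In bulk tumors, 49 of the 111 members tested were lower and 3 were higher, where 11.9% of all tested genes were lower and 11.4% higher, together 23.4% (edgeR quasi-likelihood test, Benjamini-Hochberg adjusted p under 0.05). In sorted tumor cells, 71 of 96 were lower and 5 higher (all genes, 26.8% and 24%, together 50.8%). In the neurosphere set, 66 of 95 were lower and 6 higher (all genes, 29.6% and 30%, together 59.6%). The median log2 fold change, CT2A over GL261, was -0.67 in bulk, -1.09 in sorted and -0.91 in neurosphere cells, against -0.28, -0.37 and -0.25 for the rest of chromosome 10 and -0.03, 0.02 and 0.06 for the other autosomes. A log2 fold change between -1.5 and -0.5 was found for 64 of 111, 56 of 96 and 40 of 95 members. That band held 17.1%, 18.3% and 14.7% of all genes. It lies around the members' medians, so these shares restate the shift and do not measure spread. The quartiles of the members were -1.07 and -0.35 in bulk, -1.44 and -0.68 in sorted and -1.52 and -0.39 in neurosphere cells. For all genes they were -0.44 and 0.32, -0.73 and 0.61, and -0.78 and 0.65.

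Among the 94 members tested in all 3 designs, 43 were lower in each, against 9.21% of the 13324 genes tested in all 3. A further 22 were lower in 2 designs, and 20 of these were lower in sorted and neurosphere cells but not called in bulk. Another 12 were lower in 1 design, 8 were higher in at least 1 and lower in none, 9 were called in none, and 0 were higher in one design and lower in another. Shares over all genes were not taken for the classes other than lower in each, so those counts are not set against genes at large. The 3 designs share no library. No other autosome, taken whole, had a median as low: chromosome 14 came next, at -0.32 in bulk, -0.85 in sorted and -0.81 in neurosphere cells. Segments of like size on other chromosomes were not compared, so this does not rank the segment among such segments.

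The shift was visible in every library. Relative to the GL261 mean of each design, the median level of the members on the log2 scale was -0.80, -0.80, -0.71 and -0.79 in the 4 bulk CT2A tumors and ran from -0.27 to 0.19 in the GL261 tumors. In sorted cells it was -1.09, -1.12 and -1.10 in CT2A and -0.07 to 0.00 in GL261. In the neurosphere set the 5 CT2A libraries lay between -0.95 and -0.82 and the GL261 libraries between -0.02 and 0.00. The lines did not overlap in any design, and the GL261 tumor nearest to CT2A was bulk library 412.

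**Figure D1:**
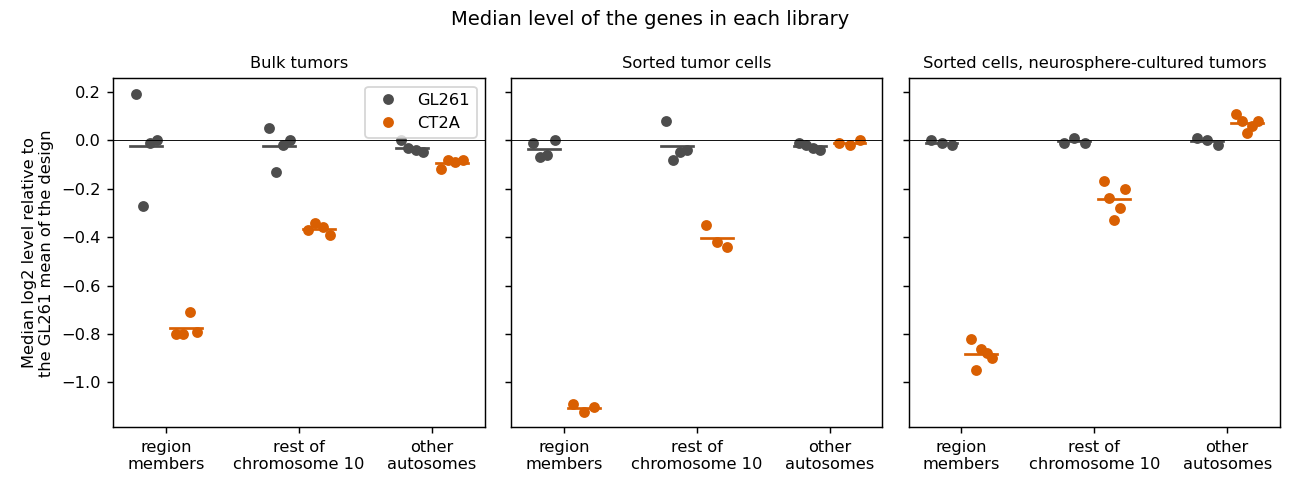
Median log2 level of the region's members, of the rest of chromosome 10 and of the other autosomes in each library, relative to the GL261 mean of its design. Each point is a library and each short line a group mean; for the members, CT2A libraries lie between -0.71 and -0.80 in bulk, between -1.09 and -1.12 in sorted and between -0.82 and -0.95 in neurosphere cells, while other autosomes stay near 0.

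Along the chromosome, the members were lower than the genes just before the segment, but negative medians were not particular to it. The windows from 0 to 100 Mb had negative medians in each design, between -0.16 and -0.54. The window from 100 to 110 Mb, outside the segment, had medians of -0.60 in bulk (10 of 24 genes lower), -0.91 in sorted (10 of 20) and -0.49 in neurosphere cells (8 of 19), and the window from 110 to 117 Mb had -0.15, 0.00 and 0.00. The last 10 genes before the segment had medians of -0.11 in bulk, 0.16 in sorted and 0.07 in neurosphere cells. These neighbors were not uniform: Cpm, a membrane carboxypeptidase gene, was far lower in CT2A (log2 fold change -4.71 ± 0.58 (SE) in bulk, -5.96 ± 0.74 in sorted, -6.74 ± 0.61 in neurosphere cells), and Mdm1, the closest, was higher (0.82 ± 0.21, 1.23 ± 0.24 and 1.12 ± 0.20; adjusted p = 0.0219, 0.00279 and 0.000727).

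The first member, Dyrk2, a protein kinase gene, was not called in any design with all libraries. Its normalized counts in bulk were 868, 816, 983 and 821 in GL261 and 798, 771, 747 and 891 in CT2A, which overlap. In sorted cells they were 956, 303, 333 and 378 in GL261 and 233, 272 and 289 in CT2A, so the groups did not overlap, with the high value in library 81 (log2 fold change -0.87 ± 0.40, adjusted p = 0.101). Without library 81 it was called lower there (-0.35, adjusted p = 0.043), as it was in neurosphere cells without CT2A library 59 (-0.54, adjusted p = 0.00339, against -0.31 and 0.265). The second member, Cand1, which regulates cullin ubiquitin ligases, was lower in all 3, by 0.63 ± 0.10, 0.51 ± 0.12 and 0.32 ± 0.10 on the log2 scale (adjusted p = 0.00399, 0.00674 and 0.0192). In neurosphere cells its call ended without GL261 90 or 91 and with no minimum count (adjusted p = 0.0769, 0.0646 and 0.0983), and in bulk with an offset for effective length (0.111).

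Between 120 and 122 Mb, from Helb to Srgap1, the 13 members had medians of -1.08, -1.38 and -1.30, the lowest of the windows in the segment in each design. Between 122 and 124 Mb the medians were -0.66, -1.08 and -1.21. Few members lay between 124 and 127 Mb, with the widest gap, 1.96 Mb, between Fam19a2 and Slc16a7. Each window of 0.5 Mb from 127 to 129 Mb had a negative median in each design, between -0.34 and -1.20. In the last window, from 129 Mb, which holds olfactory and vomeronasal receptor genes, the median of the 9 members tested in bulk was -0.61. Only 5 were tested in sorted cells (median -1.01, 1 lower) and 4 in neurosphere cells (median -0.19), so the distal limit of the difference was not resolved.

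**Figure D2:**
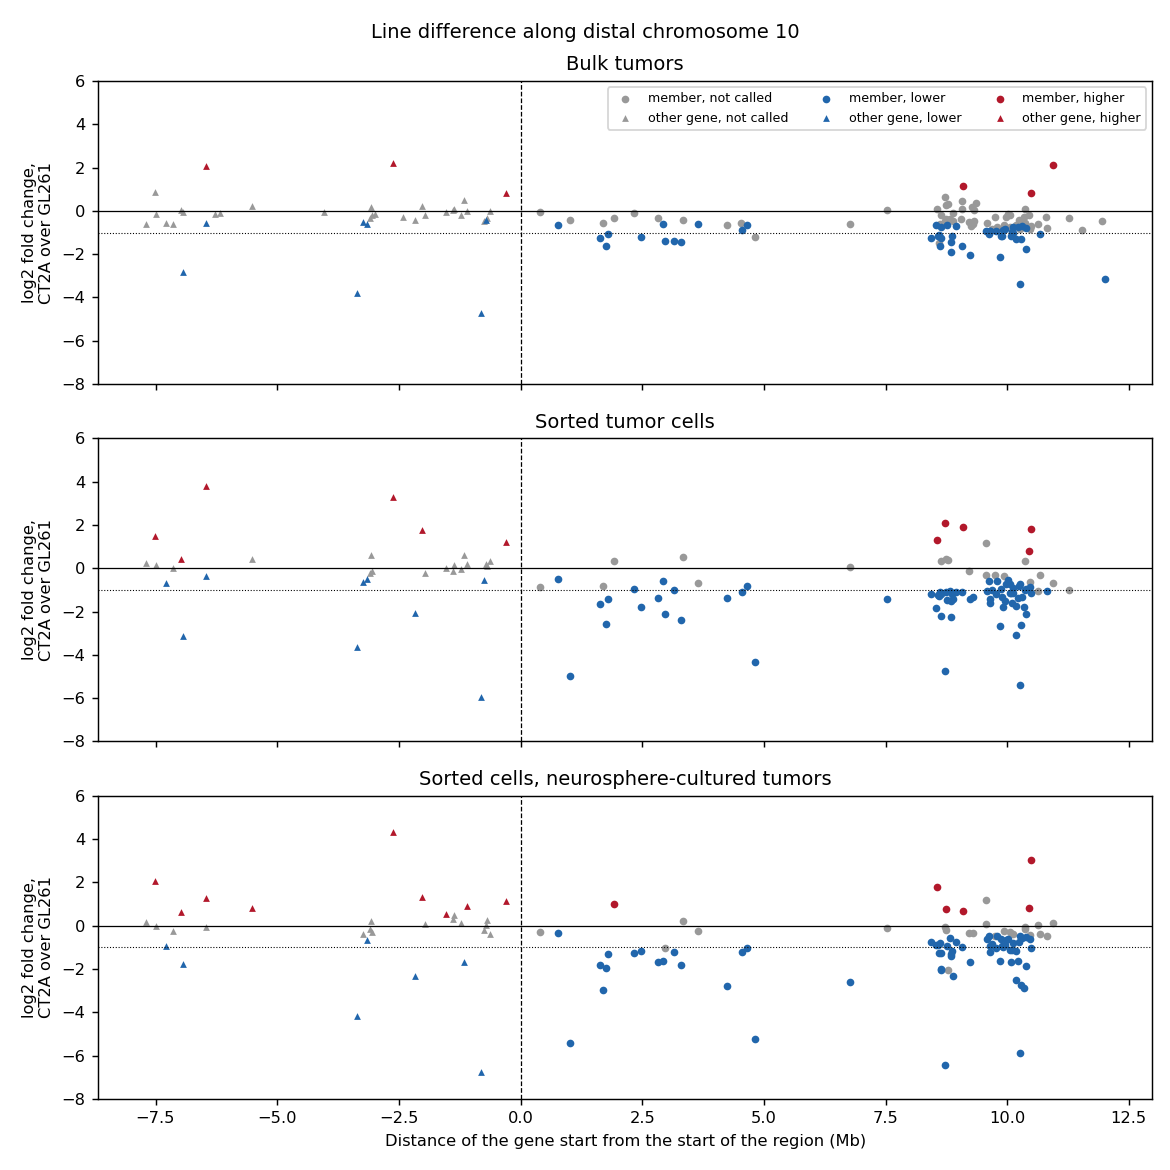
Log2 fold change of CT2A over GL261 for each tested gene by the distance of its start from the start of the region, in Mb, for the 3 designs. Circles are members and triangles genes before the region, colored by the call; the dashed line is the region's start and the dotted line a log2 fold change of -1; most members lie below 0, while Lrp1 and Itga7 stand above 0 in each panel.

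The counts by role below stand against 44.1%, 74% and 69.5% of all tested members lower in bulk, sorted and neurosphere cells, and 11.9%, 26.8% and 29.6% of all genes. Genes of translation and RNA processing had the highest share lower of the role lists in each design. Of 12 members on that list, 11 were lower in bulk, 12 in sorted and 11 in neurosphere cells, with medians of -1.05, -1.24 and -1.15. Rps26, a protein of the small ribosomal subunit, had normalized counts of 19481, 6710, 11452 and 15817 in bulk GL261 and 5076, 6246, 5044 and 4520 in bulk CT2A. In sorted cells it had 6355, 4731, 4556 and 4211 against 1551, 1373 and 1410, and in neurosphere cells 5388, 5561 and 5344 against 3090, 1967, 2667, 2039 and 2675. The lines were separate in each design, and in bulk GL261 library 412 came close to CT2A. The log2 fold changes were -1.32 ± 0.33, -1.76 ± 0.17 and -1.17 ± 0.15 (adjusted p = 0.0215, 6.82e-05 and 0.000114). Pan2, the catalytic subunit of a poly(A)-shortening nuclease, fell more, to 466, 393, 460 and 419 counts in bulk CT2A from 2440, 1307, 2078 and 2076 in GL261 (-2.13 ± 0.22, adjusted p = 0.000696), by 2.66 ± 0.24 in sorted and 1.65 ± 0.19 in neurosphere cells. Xpot, a tRNA exporter, and Mars, the methionyl-tRNA synthetase, were lower in all 3, with -1.39, -1.0 and -1.23 for Xpot and -1.15, -1.20 and -1.16 for Mars. Rpl41, of the large subunit, was the member of this list not called in neurosphere cells (-0.38 ± 0.23, adjusted p = 0.181), and Naca, a chaperone of nascent chains, the member not called in bulk (-0.58 ± 0.20, adjusted p = 0.0692).

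Metabolic genes were lower in most cases. Of 14 members on the list, 8 of 14 tested were lower in bulk, 9 of 12 in sorted and 9 of 12 in neurosphere cells, and B4galnt1 in sorted cells was the exception that was higher. Cs, the citrate synthase that opens the citrate cycle, had 9894, 7861, 9367 and 9511 normalized counts in bulk GL261 and 3951, 3538, 4096 and 3993 in bulk CT2A. In sorted cells the counts were 4272, 2745, 2768 and 3294 against 1244, 1306 and 1284, and in neurosphere cells 3304, 3420 and 3089 against 1786, 1614, 1940, 1590 and 1801. No CT2A library reached a GL261 library, and the log2 fold changes were -1.18 ± 0.15, -1.34 ± 0.18 and -0.95 ± 0.11 (adjusted p = 0.00143, 0.000366 and 4.63e-05). Atp5b, the catalytic beta subunit of ATP synthase, changed alike (-0.95 ± 0.16, -1.44 ± 0.19 and -0.93 ± 0.13). Shmt2, the mitochondrial serine hydroxymethyltransferase of folate metabolism, was at -1.62 ± 0.41, -1.09 ± 0.16 and -1.0 ± 0.17. Its bulk GL261 counts of 7821, 1972, 3536 and 3615 were uneven, and the bulk call ended when any 1 of the 4 CT2A libraries was left out (adjusted p = 0.0538 to 0.0655). Gls2, a mitochondrial glutaminase, was called in none (-0.30, -0.31 and -0.50).

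Replication, repair and cell cycle genes were lower in 5 of 8, 6 of 8 and 6 of 8 members, and 1 (Hmga2) was higher in neurosphere cells. Helb, a helicase that restrains DNA end resection, had 770, 503, 742 and 823 normalized counts in bulk GL261 and 280, 312, 317 and 247 in bulk CT2A, which are far apart. It was at 276, 315, 311 and 308 against 84.7, 92.1 and 111 in sorted cells, and at 388, 354 and 372 against 109, 113, 126, 88.7 and 107 in neurosphere cells. The log2 fold changes were -1.25 ± 0.20, -1.64 ± 0.16 and -1.81 ± 0.15 (adjusted p = 0.00349, 7.51e-05 and 5.15e-06). Cdk2, the kinase of S-phase entry, was lower by 0.73 ± 0.12 in sorted and 0.47 ± 0.15 in neurosphere cells (adjusted p = 0.00123 and 0.0212). Prim1, the small primase subunit, was lower in bulk (-0.93 ± 0.28, adjusted p = 0.0442) but was at -0.31 ± 0.18 and 0.09 ± 0.22 in the sorted designs, where it was not called.

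Chromatin and transcription genes were lower in 5 of 12, 7 of 11 and 7 of 11 tested members, and Hmga2, which is on both lists, was higher in neurosphere cells, shares at or under those of all members. Ddit3, which encodes the stress-induced factor CHOP, had 1294, 844, 1286 and 1415 normalized counts in bulk GL261 and 263, 278, 419 and 273 in bulk CT2A. It was at 372, 190, 182 and 266 against 52.4, 42 and 62.6 in sorted cells and at 302, 236 and 175 against 89.5, 69.6, 125, 85.9 and 87.7 in neurosphere cells. CT2A was lower without overlap each time (-1.91 ± 0.25, -2.25 ± 0.30 and -1.41 ± 0.24; adjusted p = 0.00141, 0.000415 and 0.000534). Ikzf4, a zinc finger factor of lymphoid cells, was at -0.64 ± 0.45 in bulk (adjusted p = 0.376) and at -3.07 ± 0.31 and -2.51 ± 0.31 in sorted and neurosphere cells (adjusted p = 7.89e-05 and 7.16e-05). Mbd6, a methyl-binding domain protein, and Baz2a, a chromatin remodeler of ribosomal genes, were lower in all 3, with -1.46, -1.49 and -1.30 for Mbd6 and -0.94, -1.61 and -1.21 for Baz2a.

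Genes of membrane traffic, cytoskeleton and protein quality control were lower in 10 of 24, 18 of 23 and 16 of 23 tested members, near the shares of all members, and 1 was higher in sorted (Avil) and 2 in neurosphere cells (Avil and Arhgef25). Tmbim4, a Golgi protein that limits cell death, and Ormdl2, a regulator of sphingolipid synthesis, were lower in all 3: they fell by 1.61, 2.57 and 1.96 for Tmbim4 and by 1.75, 2.11 and 1.87 for Ormdl2 on the log2 scale. Os9, a lectin of endoplasmic reticulum quality control, had 3831, 3564, 4261 and 3939 counts in bulk GL261 and 1923, 2192, 2444 and 2313 in bulk CT2A (-0.75 ± 0.14). In sorted cells it had 3707, 1911, 1972 and 2472 against 511, 508 and 590 (-2.21 ± 0.25). The bulk difference was smaller than the sorted one (difference of differences -1.35 ± 0.28, adjusted p = 0.00567; -1.15 without sorted GL261 library 81, adjusted p = 0.00106).

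Among 17 secreted, receptor and signaling members, 3 were lower and 2 higher in bulk, 8 of 14 lower and 3 higher in sorted, and 9 of 14 lower and 3 higher in neurosphere cells. This group held Pmel and both members that were higher in all 3 designs. Dgka, a diacylglycerol kinase best known from T cells, was at 474, 751, 766 and 661 counts in sorted GL261 and 116, 110 and 99.7 in sorted CT2A, and at 607, 644 and 660 against 86.9, 112, 63.3, 116 and 106 in neurosphere cells. The lines were widely separated (-2.60 ± 0.21 and -2.76 ± 0.19, adjusted p = 2.73e-05 and 1.66e-06), and bulk showed -1.29 ± 0.31 (adjusted p = 0.0178). The summed level of 4 T cell markers was 4.93 to 9.03 CPM in sorted GL261 and 0.995 to 2.36 in sorted CT2A. In neurosphere cells it was 4.56 to 11.1 in GL261 and 0.431 to 2.23 in CT2A. The part of these markers in the values of Dgka and Ikzf4 was not tested.

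Pmel, which encodes the amyloid matrix protein of melanosomes, was nearly undetected in CT2A. Its normalized counts were 144, 52.8, 130 and 157 in bulk GL261 and 9.91, 7.66, 11.4 and 15.4 in bulk CT2A. In sorted cells they were 105, 67.3, 70.4 and 74.9 against 2.23, 3.07 and 0, from 323 and 5 reads in all. In neurosphere cells they were 100, 69.3 and 74.7 against 0.844, 0, 1.51, 2.8 and 1.51, from 201 and 7 reads. All CT2A values were below all GL261 values (-3.37 ± 0.46, -5.41 ± 0.62 and -5.89 ± 0.53, adjusted p = 0.00185, 0.000172 and 8.95e-06). The fitted sizes in the sorted designs rest on few reads and depend on the prior count. Pmel overlaps Dgka and Cdk2 on the opposite strand, and the use of strand in the counting was not given in the sources used here, so their reads may not be fully separate.

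Slc26a10, an anion transporter family member, and Grip1, a scaffold of glutamate receptors, were lower in CT2A in sorted and neurosphere cells and not called in bulk. Slc26a10 had 530, 583, 529 and 548 normalized counts in bulk GL261 and 369, 347, 333 and 463 in bulk CT2A (-0.47 ± 0.16, adjusted p = 0.0652). In sorted cells it had 50.7, 94.4, 53.1 and 72.3 against 0, 5.12 and 1.9 (-4.75 ± 0.70, adjusted p = 0.000652), and in neurosphere cells 3 reads in all 5 CT2A libraries together against 141 in GL261. That is 0.955% of the GL261 level (95% exact interval 0.195 to 2.85, for counting error only). Grip1 was at 108, 408, 181 and 166 in bulk GL261 and 112, 89.4, 180 and 227 in bulk CT2A, which overlap. It had 3 reads in sorted CT2A against 146 in GL261 (2.86% of its level, interval 0.583 to 8.52), and 3 against 67 in neurosphere cells (2.01%, interval 0.404 to 6.13). For both genes the bulk and sorted differences were unequal (difference of differences -4.19 ± 0.61, adjusted p = 0.000554 for Slc26a10; -4.50 ± 1.03, adjusted p = 0.0105 for Grip1). Fam19a2, a neuronal chemokine-like gene, showed the same order of values (-1.20 ± 0.52, -4.31 ± 1.07 and -5.25 ± 0.70), without a difference between bulk and sorted that passed the test. The summed level of 5 neuronal markers was 131 to 2251 CPM in bulk GL261 and 338 to 1833 in bulk CT2A. In sorted cells it was 8.56 to 35.1 in GL261 and 15.4 to 27.7 in CT2A. In neurosphere cells it was 10.2 to 21.1 in GL261 and 1.25 to 11.8 in CT2A. Most oligodendrocyte markers were lower in sorted and neurosphere CT2A, as given above. The part of either list in these values was not tested. Slc26a10 overlaps B4galnt1, and Grip1 overlaps Helb, on the opposite strand.

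**Figure D3:**
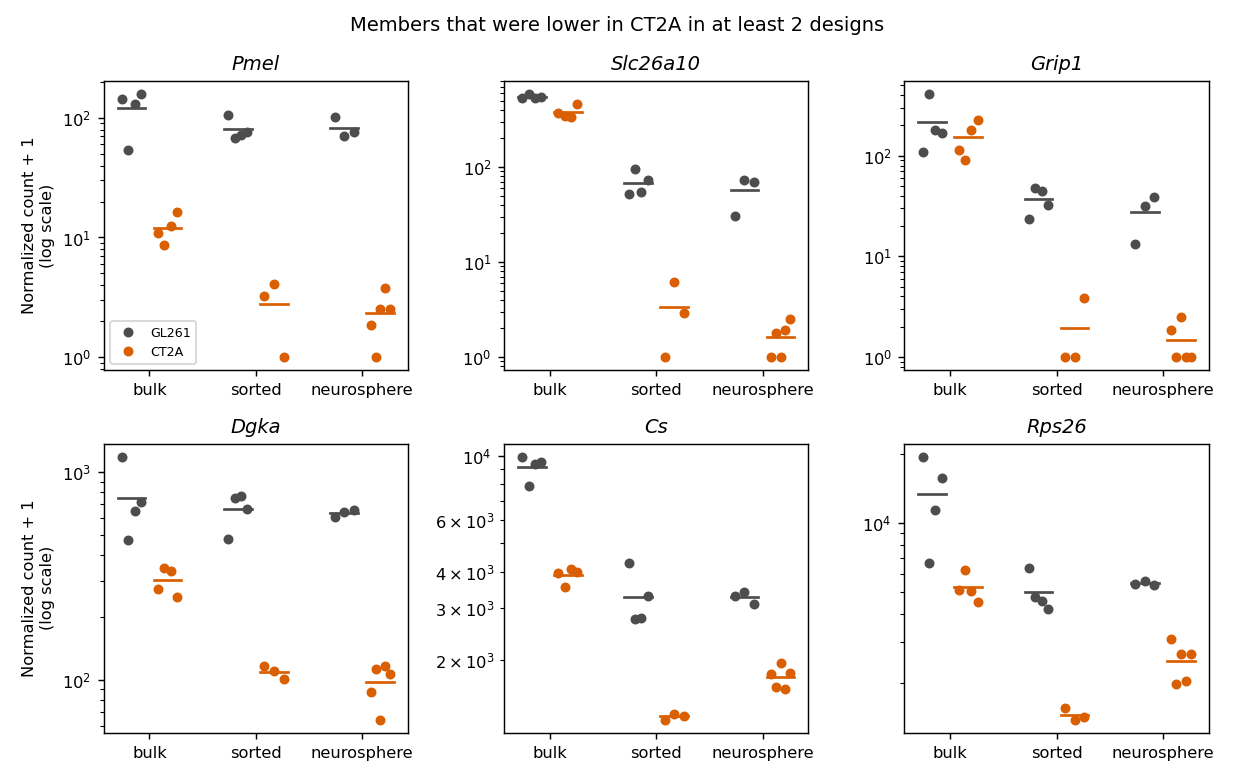
Normalized count plus 1 in each library, on a log axis, for 6 members that were lower in CT2A in at least 2 designs, with GL261 in grey and CT2A in orange. Each point is a library and each short line a group mean; in the sorted designs Pmel, Slc26a10 and Grip1 fall to a few counts in CT2A, whereas Cs stays at 1244 or more.

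Irak3, an inhibitor of Toll-like receptor signaling in macrophages, had 126, 110 and 91.8 counts in neurosphere GL261 and 13.5, 11.7, 24.1, 13.1 and 6.05 in CT2A (-2.99 ± 0.36, adjusted p = 6.58e-05). In sorted cells it was at 31.4, 42, 49.6 and 29.6 against 21.2, 19.4 and 22.8, separate but not past the test (-0.83 ± 0.33, adjusted p = 0.0657). The neurosphere difference was larger than the sorted one (-2.20 ± 0.49, adjusted p = 0.0173). Mmp19, a matrix metalloproteinase, and Arhgap9, a GTPase-activating protein of blood cells, were lower in neurosphere (-2.89 ± 0.66 and -2.33 ± 0.41) and sorted cells (-1.80 ± 0.39 and -1.44 ± 0.39). Slc16a7, a pyruvate and lactate carrier, was lower in neurosphere cells alone (-2.60 ± 0.41, against 0.06 ± 0.93 in sorted cells, not called). The neurosphere and sorted differences of Mmp19, Arhgap9 and Slc16a7 did not differ past the test (-1.14, -0.93 and -2.72, adjusted p = 0.474, 0.4 and 0.142). The macrophage and microglia markers were lower in CT2A in the neurosphere set, as given above, but 0 of 6 were called in sorted cells. There they summed to 262 to 566 CPM in CT2A and 53.3 to 389 in GL261. The part of these markers in the values was not tested. Without CT2A library 59, Mmp19 also differed between the sorted and neurosphere sets (-2.04, adjusted p = 0.0477).

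Of the 8 members that were higher in CT2A in some design, Lrp1 and Itga7 were higher in all 3, where 9.36% of all genes tested in the 3 designs were. Lrp1 encodes a large endocytic receptor of the LDL receptor family. Its normalized counts in bulk were 4172, 12001, 8093 and 7675 in GL261 and 20312, 16965, 15945 and 13916 in CT2A. In sorted cells they were 715, 2366, 2422 and 2191 against 6128, 7779 and 7433, and in neurosphere cells 7331, 4505 and 5672 against 13580, 8641, 8426, 9436 and 7747. Every CT2A library exceeded every GL261 library of its design, and library 81 was far below the other sorted GL261 libraries. The log2 fold changes were 1.15 ± 0.28, 1.90 ± 0.38 and 0.67 ± 0.22 (adjusted p = 0.0187, 0.00341 and 0.022), and without library 81 the sorted value was 1.62 (adjusted p = 6.23e-06). The bulk call ended without GL261 414, GL261 417 or CT2A 39 (adjusted p = 0.0547, 0.0565 and 0.0649), and the neurosphere call without GL261 90 or 91 (0.107 and 0.0677) and with all 6 groups in 1 fit (0.101).

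Itga7, at 128933818 to 128958282 on the plus strand, encodes the laminin-binding integrin alpha 7 subunit. Its counts in bulk were 407, 307, 330 and 341 in GL261 and 731, 710, 529 and 428 in CT2A. In sorted cells they were 103, 60.7, 75 and 104 against 338, 334 and 221, and in neurosphere cells 66.6, 78.7 and 83.3 against 689, 526, 859, 668 and 497. The gap widened from bulk, where the groups nearly met, to the neurosphere set. The log2 fold changes were 0.83 ± 0.20, 1.81 ± 0.25 and 3.05 ± 0.23 (adjusted p = 0.0187, 0.000455 and 2.89e-06). Both differences passed the test of the difference itself (sorted against bulk 1.08 ± 0.32, adjusted p = 0.0366; neurosphere against sorted 1.2 ± 0.33, adjusted p = 0.0429). In bulk the call ended when GL261 414, GL261 417, CT2A 39 or CT2A 40 was left out (adjusted p = 0.055 to 0.0708).

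Gdf11, a TGF-beta family ligand, was at 726, 602, 718 and 655 counts in bulk GL261 and 528, 705, 565 and 525 in bulk CT2A (-0.17 ± 0.15, not called). In sorted cells it was at 126, 181, 190 and 186 against 302, 289 and 309, and in neurosphere cells at 104, 162 and 170 against 269, 331, 136, 312 and 280. CT2A was higher in both (0.82 ± 0.18, adjusted p = 0.00514; 0.82 ± 0.29, adjusted p = 0.0331), and sorted differed from bulk (1.11 ± 0.21, adjusted p = 0.00398). Without library 81 the sorted value was 0.69 (adjusted p = 0.00042). In the neurosphere set the low CT2A value is library 59, without which the value was 0.99 (adjusted p = 0.00107), and the call ended when GL261 89, GL261 90, CT2A 57, CT2A 58, CT2A 60 or CT2A 61 was left out (adjusted p = 0.0543 to 0.131).

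B4galnt1, the GM2 and GD2 ganglioside synthase, was higher in sorted CT2A, at 349, 336 and 455 counts against 36.5, 107, 141 and 81 in GL261 (2.07 ± 0.38, adjusted p = 0.00235; 1.80 without library 81, adjusted p = 9.81e-05). In neurosphere cells the lines overlapped, at 616, 437 and 395 in GL261 and 459, 450, 589, 468 and 416 in CT2A (-0.06 ± 0.18), and this differed from the sorted set (-2.17 ± 0.42, adjusted p = 0.0108). In bulk it was at 0.65 ± 0.34 (adjusted p = 0.216). Slc26a10, which overlaps it on the other strand, moved the opposite way in sorted cells.

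Hmga2, an architectural chromatin factor of embryonic and tumor cells, was higher in neurosphere CT2A, at 2890, 1912, 936, 1695 and 1834 counts against 1021, 950 and 727 (1.0 ± 0.29, adjusted p = 0.0143). The CT2A value inside the GL261 range was that of library 59, without which the log2 fold change was 1.16 (adjusted p = 0.000467), and the call ended without GL261 91 (adjusted p = 0.0643). Arhgef25, a guanine nucleotide exchange factor, was higher in the same set (0.77 ± 0.18, adjusted p = 0.00459). Avil, an actin-binding protein of sensory neurons, had 23.4, 16.4 and 14.2 counts in sorted CT2A against 8.11, 5.61, 10.4 and 5.23 in GL261 (1.31 ± 0.43, adjusted p = 0.0313) and was higher in neurosphere CT2A (1.80 ± 0.62, adjusted p = 0.0292). Both calls rest on low counts: the sorted one ended in 7 of 13 alternatives and the neurosphere one in 5 of 14.

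The call of Olfr784, an olfactory receptor gene, depended on the quantification. Salmon gave it 3836, 1655, 2921 and 3332 normalized counts in bulk GL261 and 15657, 16553, 9049 and 9341 in bulk CT2A (2.14 ± 0.33, adjusted p = 0.00283), but 8.54 to 28.8 in sorted cells of both lines. In the expected counts from RSEM, which the authors made from the same bulk tumors, Olfr784 had between 0 and 16 in each bulk library. Vmn2r86, a vomeronasal receptor and the last member, was lower in bulk by the Salmon reads (-3.15 ± 0.46, adjusted p = 0.00228), at 155, 71.9, 102 and 109 against 7.44, 12.8, 20.5 and 6.61, and had between 0 and 17 RSEM counts. Most of its reads lay in bulk GL261, so its choice as a member was not independent of this call. In the RSEM counts the members higher in bulk CT2A were Itga7, Lrp1 and Dnajc14 (0.39, adjusted p = 0.0197).

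**Figure D4:**
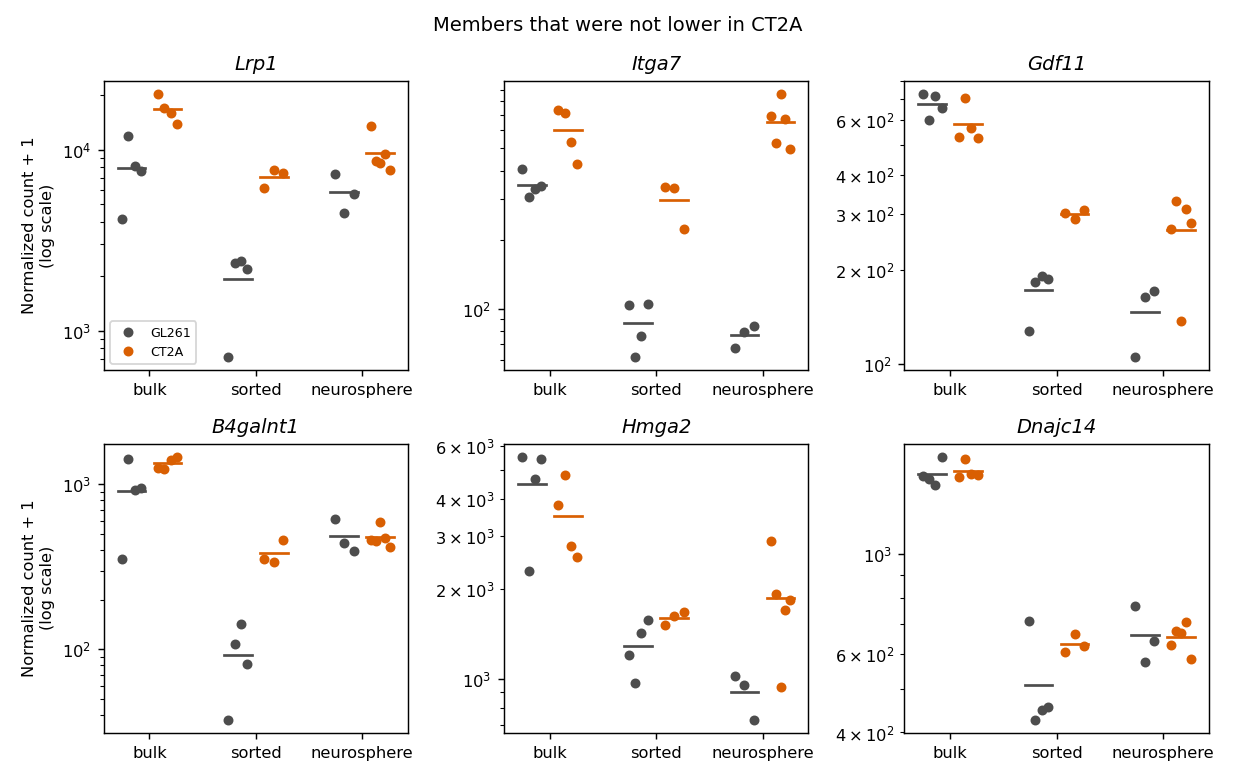
Normalized count plus 1 in each library, on a log axis, for 6 members that were not lower in CT2A, with GL261 in grey and CT2A in orange. Each point is a library and each short line a group mean; Lrp1 and Itga7 are higher in CT2A in the 3 designs, Gdf11 and B4galnt1 in sorted cells, and Dnajc14 overlaps between the lines in each.

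Of the members tested in all 3 designs, 9 were called in none: Dyrk2, Srgap1, Kif5a, Nab2, Gls2, Ankrd52, Dnajc14, Rdh5 and Olfr767. Dnajc14, a membrane chaperone of the endoplasmic reticulum, had log2 fold changes of 0.08 ± 0.11, 0.33 ± 0.19 and -0.06 ± 0.13, while Ormdl2 and Sarnp, which overlap it, were lower in all 3. In sorted cells its counts were 708, 426, 448 and 455 in GL261 and 603, 664 and 623 in CT2A, which overlap through library 81, and without that library its sorted and bulk differences were unequal (0.51, adjusted p = 0.0202). Its bulk counts were 1495, 1474, 1431 and 1651 in GL261 and 1487, 1637, 1515 and 1504 in CT2A, which overlap. Ankrd52, a regulatory subunit of a phosphatase, was at -0.64, -0.34 and -0.25, Nab2, a repressor of EGR factors, at -0.52, -0.14 and -0.34, and Srgap1, a GTPase-activating protein of cell migration, at -0.44, 0.50 and 0.22.

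The size of the difference also differed between designs for some members. Of the 112 members tested, 11 differed between bulk and sorted tumors, 8 with the more negative value in sorted cells, where 13.5% of all genes differed. Subline, sorting, library kit, sequencer and read length changed together between bulk and sorted samples, so their parts cannot be told apart. Those not yet named as such were Dgka (-1.22 ± 0.35, adjusted p = 0.0328), Ikzf4 (-2.30 ± 0.63, adjusted p = 0.026), Lrig3 (-1.36 ± 0.38, adjusted p = 0.029) and Myl6 (-0.86 ± 0.26, adjusted p = 0.0387), the last named after its values were seen, besides Olfr784 (-2.75 ± 0.48) and Vmn2r86 (2.85 ± 0.74). Lrig3, a regulator of growth factor receptors, had -1.29 without sorted GL261 library 81 (adjusted p = 0.05, not called). Without that library the calls of Grip1 (-4.72), Slc26a10 (-4.36), Olfr784 (-2.91), Ikzf4 (-2.36), Dgka (-1.40), Os9 (-1.15), Myl6 (-0.72), Gdf11 (0.93), Itga7 (1.12) and Vmn2r86 (2.79) were still made (adjusted p = 0.000526 to 0.0387). Between sorted and neurosphere cells 3 of 96 members differed (Irak3, B4galnt1 and Itga7), against 6.67% of all genes. Over the 94 members, log2 fold changes of sorted and neurosphere cells had a Pearson correlation of 0.82, those of bulk and sorted 0.59, and those of bulk and neurosphere 0.43. These are correlations across genes, which are not independent replicates, and over all 13324 genes the values were 0.87, 0.75 and 0.67.

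**Figure D5:**
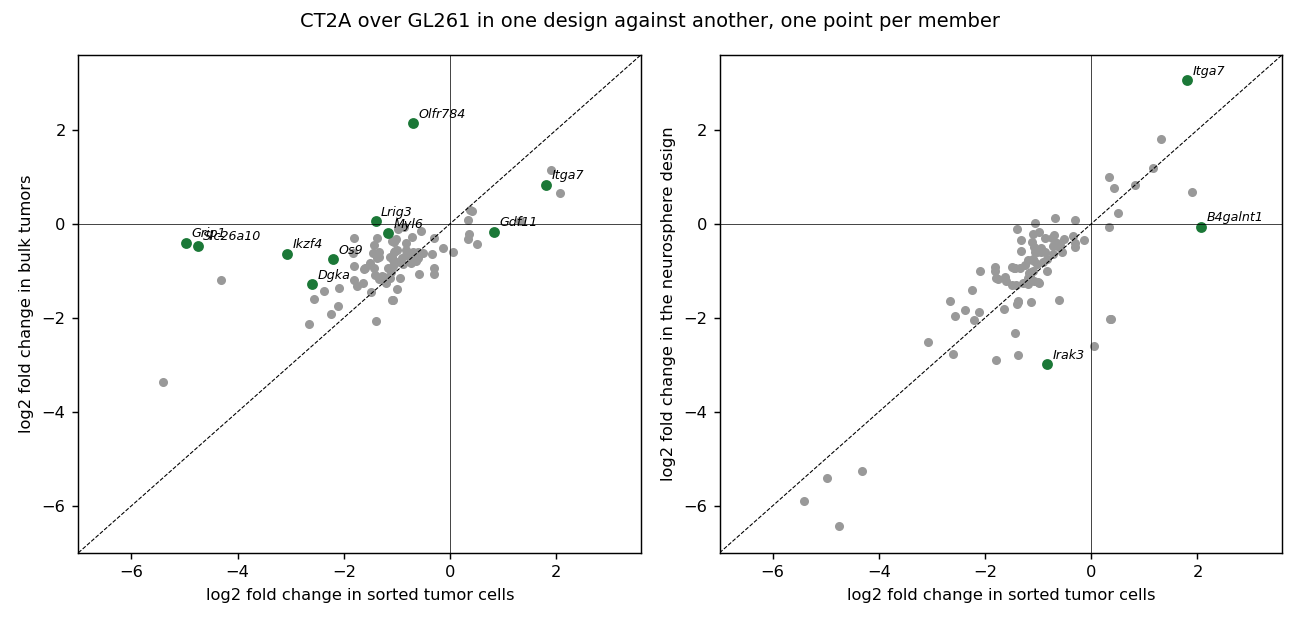
Log2 fold change of CT2A over GL261 in sorted tumor cells (horizontal axis) against bulk tumors (left) or the neurosphere set (right), 1 point per member tested in both. Green, named points differed between the 2 designs by the interaction test; Grip1 and Slc26a10 lie far left of the diagonal on the left panel, and Itga7 and B4galnt1 on opposite sides of it on the right panel. Vmn2r86 was not tested in sorted cells alone and is not drawn.

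The partners of these genes that lie elsewhere in the genome did not move as one. Of 87 partner genes on 10 lists, 9 were lower and 8 higher in bulk, 23 lower and 16 higher of 83 in sorted, and 13 lower and 27 higher of 83 in neurosphere cells, with medians of -0.03, -0.11 and 0.10. Over all genes, 11.9% were lower and 11.4% higher in bulk, 26.8% and 24% in sorted and 29.6% and 30% in neurosphere cells, so the partners' counts lay near or under the background. Of 11 citrate cycle genes besides Cs, 1 was lower in bulk, 2 in sorted and 3 in neurosphere cells, and 2 were higher in sorted and 2 in neurosphere cells. Idh3g, a subunit of isocitrate dehydrogenase, was lower in each (-0.79, -1.21 and -1.05). The median of 24 cytosolic ribosomal protein genes was -0.08, -0.55 and -0.12, with 1, 10 and 2 lower and 2, 2 and 5 higher. The median of 8 SWI/SNF core genes was 0.55, 0.49 and 0.64, whereas their complex member Smarcc2, in the segment, was lower in sorted and neurosphere cells (-0.55 ± 0.14 and -0.61 ± 0.13). Among partners of Cdk2, the inhibitor gene Cdkn1a was lower in each design (-1.37, -3.24 and -2.20), and the cyclins Ccna2, Ccne1 and Ccne2 were higher in sorted and neurosphere cells. Of 6 mitochondrial folate cycle genes, 2, 3 and 2 were lower and 1 was higher in each of sorted and neurosphere cells; Aldh1l2 (-3.63, -4.31 and -4.54) and Mthfd1l (-1.63, -2.08 and -1.54) were lower in each design. Of the hedgehog pathway genes, Ptch1 was lower (-1.17, -1.16 and -1.09) and Smo higher (1.25, 1.99 and 2.73) in each design, while Gli1 itself, in the segment, was tested in bulk alone (-0.10 ± 0.55, adjusted p = 0.942). Of 5 partners of Atp5b in the F1 part of ATP synthase, 2 were lower in sorted cells, and the list's medians were -0.19, -0.41 and 0.01.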

How the data were processed

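RNA sequencing of 23 libraries was analysed. Per the labels, the authors ran Salmon on the mouse transcriptome (mm10, GRCm38). The deposited tables hold estimated counts per transcript, not normalized, with TPM, which Salmon scaled to length and depth; bulk and sorted samples also have expected counts per gene from STAR 2.7.7a and RSEM 1.3.3, deposited by the authors without normalization. Strand settings were not given in the sources used here. Tables of the authors' own comparisons were not used.

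Estimated reads of 116546 transcripts were summed per gene and rounded. CT2A was tested against GL261 in each design with edgeR 4.0.16 (TMM, robust quasi-likelihood; R 4.3.3), keeping genes with a mean normalized count above 10, and Benjamini-Hochberg adjusted p under 0.05 was called. The study used DESeq2 1.30.1; DESeq2 1.42.0 was an alternative. Errors are SE of log2 fold changes, derived from the F statistic. Differences between designs were interaction terms. Depth was 7395846 to 42608400 reads per library. The fits were tested on simulated data. The libraries are labelled as separate tumors or cultures only by sample numbers, so p-values measure the spread between these libraries. Replicates of a group differed by more than sampling noise in all 34 pairs (chi-square per degree of freedom 4.85 or more).

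The members and all gene lists were chosen with earlier results of these data known. Genes were named by a rule: members called higher in any design, the 6 lowest called log2 fold changes per design, members with at most 3 reads in every CT2A library, members at the edges and beside gaps over 0.5 Mb, those with the smallest p per role list, and up to 2 partner genes per list. Members called in no design, Rpl41, Naca, Prim1, Sarnp, Smarcc2, Gli1 and Myl6, the cyclins and the genes before the segment were named after their values were seen. Of the members, 43 overlap another gene of the tables, 37 of them on the opposite strand, so their reads may be shared. The reporter used to select cells is not reported here.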

Additional observations from a re-analysis of the deposited data

Results flagged for a closer look

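Single libraries stood apart from their group (Dixon's test at its 95% critical value) in 14 of 140 groups of a named gene; chance flags about 1 in 20. Of these, 7 lay in sorted GL261 library 81, with its value before the median of the other libraries: Dyrk2 956 against 333, Gdf11 126 against 186, Helb 276 against 311, Lemd3 651 against 398, Lrp1 715 against 2366, Pip4k2c 1395 against 734 and Rxylt1 815 against 331 normalized counts. Its summed macrophage and microglia markers were 53.3 CPM, against 194 to 389 in the other 3. In neurosphere CT2A, library 59 was high for Arhgap9 (153 against 52.4), Dyrk2 (569 against 303), Lemd3 (287 against 158), Lrig3 (348 against 177) and Mmp19 (125 against 25.1), and its macrophage and microglia markers were the highest of the 5 CT2A libraries, at 663 CPM. Lrp1 was high in neurosphere CT2A 57 (13580 against 8534), and Ddit3 in bulk CT2A 47 (419 against 273). What set these libraries apart was not tested. Without library 81, 79 members were lower in sorted cells and 6 higher. Without library 59, 70 were lower in neurosphere cells and 6 higher. All genes called also varied with the library left out. They ranged from 5556 to 8922 in sorted cells (7000 with all libraries) and from 6894 to 9110 in neurosphere cells (8182 with all libraries). The rises in called members were therefore not shown to be particular to the members.

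The line difference itself was unequal between designs for 12 named members. Over all members it was so for 11 of 112 in bulk against sorted and 3 of 96 in neurosphere against sorted. Of all genes, 13.5% and 6.67% were unequal, so members were not unequal more often than genes at large. In sorted against bulk tumors, the difference of log2 fold changes was -4.50 for Grip1, -4.19 for Slc26a10, -2.75 for Olfr784, -2.30 for Ikzf4, -1.36 for Lrig3, -1.35 for Os9, -1.22 for Dgka, 1.08 for Itga7, 1.11 for Gdf11 and 2.85 for Vmn2r86. In neurosphere against sorted cells it was -2.20 for Irak3, -2.17 for B4galnt1 and 1.2 for Itga7.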

How the results depend on the processing

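The counts of lower and higher members stayed within 1.5 times under DESeq2, other size factors, other minimum counts, a length offset, a joint fit, RSEM counts and, chosen after seeing the data, bulk libraries thinned to the smallest depth (49 lower, 3 higher). With an added minimum log2 fold change of 1, lower members numbered 29 in bulk and 42 in neurosphere cells, higher members 2 in neurosphere cells, and all genes called 2220, 4425 and 4963. Members whose difference was unequal between bulk and sorted numbered 11 by edgeR and 17 by DESeq2, and between neurosphere and sorted cells 3 and 9. By edgeR without sorted GL261 81 they were 13 and 5, and without neurosphere CT2A 59 the latter was 6.

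Leaving out each library, lower members ranged from 32 to 59 in bulk (32 without CT2A 39), 63 to 79 in sorted and 55 to 70 in neurosphere cells, and higher members from 1 to 3, 4 to 6 and 3 to 6. Of the higher members, 1 was left in bulk without GL261 414, GL261 417 or CT2A 39, and 3 in neurosphere cells without GL261 90 or 91. All genes called ranged from 2474 to 4777, 5556 to 8922 and 6894 to 9110. The median of members minus that of other autosomes was -0.642, -1.107 and -0.971, and ranged from -0.788 (without bulk GL261 412) to -0.578, from -1.157 to -1.031 and from -1.024 to -0.918. It was -0.573, -0.974 and -0.889 with no minimum count, -0.704 and -1.076 in bulk and sorted cells with a length offset, and -1.165 in sorted cells from RSEM. The mean of the CT2A library medians is another measure. By TPM it was -0.57 in bulk and -0.93 in sorted cells, against -0.78 and -1.10 by normalized counts.

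Some results that had not passed the test changed sign. Lrig3 in bulk was at -0.048 with a length offset and -0.02 thinned, and ranged from -0.138 (without GL261 412) to 0.184 over left-out libraries. In neurosphere cells Lrig3 ranged from -0.393 (without CT2A 59) to 0.065 (without GL261 91). Slc16a7 in sorted cells was at -0.041 by RSEM and ranged from -0.809 (without CT2A 71) to 0.458, and Grip1 in bulk from -0.684 to 0.069 (without GL261 412). The cause of these changes was not tested.

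No paired analysis was possible because the groups compared share no replicate number. Low counts left members untested in sorted and neurosphere cells: 5 and 4 of 9 were tested from 129 Mb on, and 5 and 5 of 13 between 127.5 and 128 Mb. Depth and low expression were not separated.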
